A study of Mus musculus with 24 samples.

Results

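The Cyp4 family was followed in whole livers of C57BL/6J mice, a standard inbred laboratory strain, kept for 20 weeks on food deficient in methionine and choline (the MCD diet) or on its control diet. The study's methods describe the MCD food as high in fat and do not give the fat content of its control food. The diets compared may therefore differ in more than these nutrients. The genes are the Cyp4a, Cyp4f and Cyp4v rows of the count table that carry the symbols Cyp4a10, Cyp4a12a, Cyp4a12b, Cyp4a14, Cyp4a31, Cyp4a32, Cyp4f13, Cyp4f14, Cyp4f15 and Cyp4v3, which makes 10 of 56205 gene rows. Each diet has 12 libraries of polyA RNA, from males and females in equal number by the series' design text, and the labels do not give the sex of a library. No gene was altered and no agent was given besides the diet. The MCD diet lacks the precursors of phosphatidylcholine and is used as a model of fatty, inflamed and scarring liver. The labels do not give the age of the mice. They number the libraries of each diet from 1 to 12, and p-values measure the spread between these libraries.

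Cyp4 enzymes are cytochrome P450 monooxygenases of the endoplasmic reticulum. They place a hydroxyl group on the last carbon of a fatty acid, the omega carbon, and the product is oxidized to a dicarboxylic acid that peroxisomes shorten. Cyp4a genes are classical targets of PPARA, the fatty acid sensing nuclear receptor of hepatocytes, and some of them differ between the sexes under growth hormone and androgen control. Cyp4f enzymes also act on leukotrienes and other eicosanoids, and Cyp4v3 is the mouse counterpart of human CYP4V2, which acts on medium-chain fatty acids.

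The Cyp4a genes lie together on chromosome 4 (GRCm38), from Cyp4a12a at chr4:115299046-115332815 to Cyp4a32 at chr4:115600969-115621602, with Cyp4a12b at chr4:115411624-115439034, Cyp4a14 at chr4:115486200-115496142, Cyp4a10 at chr4:115518264-115533649 and Cyp4a31 at chr4:115563649-115579015 between them. The Cyp4f genes lie on chromosome 17, Cyp4f15 at chr17:32685627-32703352, Cyp4f14 at chr17:32905070-32917342 and Cyp4f13 at chr17:32924688-32947402. Cyp4v3 stands apart at chr8:45304944-45333216. All 10 are protein-coding genes. Cyp4v3 shares exon sequence on the same strand with Gm45753, which leaves its counts uncertain to that extent.

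Several of these genes are near copies, and this bears on every value below. The coding sequences of Cyp4a12a and Cyp4a12b were 98.5% identical, those of Cyp4a10 and Cyp4a32 97.2%, and those of Cyp4a10 and Cyp4a31 96.6%. Of all 50-base windows of its longest transcript, Cyp4a12a shared 48.9% with another gene, Cyp4a12b 49.4%, Cyp4a32 46.8%, Cyp4a10 30.5% and Cyp4a31 21.8%. For Cyp4a14 the share was 0.245%, for the Cyp4f genes 2.45% to 2.72%, and for Cyp4v3 7.02%. A read that falls in a shared window cannot be given to 1 copy, so the split of counts within these 2 sets is uncertain. The windows below show how few bases tell the copies apart. Each is the 60-base coding window with the most differences between the pair, read 5′ to 3′ on the plus strand, with the differing bases in capitals.
Cyp4a12a, exon 6, chr4:115326628-115326687: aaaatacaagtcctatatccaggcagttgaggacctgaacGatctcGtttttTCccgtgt
Cyp4a12b, exon 6, chr4:115432881-115432940: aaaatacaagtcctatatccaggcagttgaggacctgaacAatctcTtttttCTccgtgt
Cyp4a10, exon 1, chr4:115518427-115518486: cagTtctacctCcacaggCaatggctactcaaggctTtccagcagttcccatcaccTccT
Cyp4a31, exon 1, chr4:115563822-115563881: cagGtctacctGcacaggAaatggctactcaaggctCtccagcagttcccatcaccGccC
Cyp4a10, exon 2, chr4:115519640-115519699: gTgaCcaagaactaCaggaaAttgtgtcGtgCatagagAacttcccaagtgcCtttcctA
Cyp4a32, exon 2, chr4:115602270-115602329: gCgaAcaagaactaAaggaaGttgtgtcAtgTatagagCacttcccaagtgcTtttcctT
Cyp4a12a and Cyp4a12b differed at 4 bases of their window, Cyp4a10 and Cyp4a31 at 6, and Cyp4a10 and Cyp4a32 at 9.

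The libraries held 16793207 to 24915175 counts under control diet and 16388650 to 24577848 under MCD diet. Values are given as CPM, counts scaled to a fixed library size with TMM factors, which correct each library for the share that a few abundant genes take. The 2 diets had separate ranges of this factor (0.642 to 0.973 under control diet and 1.07 to 1.26 under MCD diet), so the scaling moves with the comparison. With total counts alone the median log2 fold change of all genes was 0.27, against -0.10 with TMM. Control replicate 12 had the lowest factor, 0.642, with the next control library at 0.792. This library was also the highest of its diet for Cyp4a32, Cyp4f13, Cyp4f14 and Cyp4f15 and the lowest for Cyp4a31.

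Summed over the 10 genes, Cyp4 transcripts amounted to 2192 ± 339 CPM under control diet and 1374 ± 265 CPM under MCD diet (SD, n = 12 each). The control libraries ran from 1680 through a median of 2129 to 2924 CPM and the MCD libraries from 839 through 1424 to 1670 CPM, so the highest MCD library was just below the lowest control library. The 6 Cyp4a genes gave 1313 ± 290 and 800 ± 251 CPM, and the 3 Cyp4f genes 571 ± 151 and 315 ± 27.6 CPM. As a plain share of all counts, without TMM, the 10 genes took 0.193% ± 0.0320 and 0.156% ± 0.0290, and on that scale the diets overlapped.

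All 10 genes passed the low-count filter, and each was tested in a fit over 14109 genes. A gene was called at an FDR of 0.01 or less with a log2 fold change beyond 0.5 in either direction. Cyp4a32, Cyp4f13 and Cyp4f14 were lower under MCD diet, and 7 Cyp4 genes did not pass. On total counts alone Cyp4f14 was the 1 gene of the family called lower, and Cyp4a31 was called higher. Among all genes tested 38.3% were called, 19.1% lower and 19.2% higher, which is 2688 and 2712 genes (848 and 4539 with total counts alone). None of the 10 was called higher with edgeR and TMM over all 24 libraries. In that fit 1 was higher and 7 were lower at an unadjusted p under 0.05. DESeq2 called 1 of the 10 higher (Cyp4a31). The log2 fold change was negative for 9 of the 10 genes, with a median of -0.65 over the 10 and of -0.10 over all genes. Since the tissue is bulk liver, fewer hepatocytes and less transcript per hepatocyte cannot be told apart in any of these values.

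**Figure D1:**
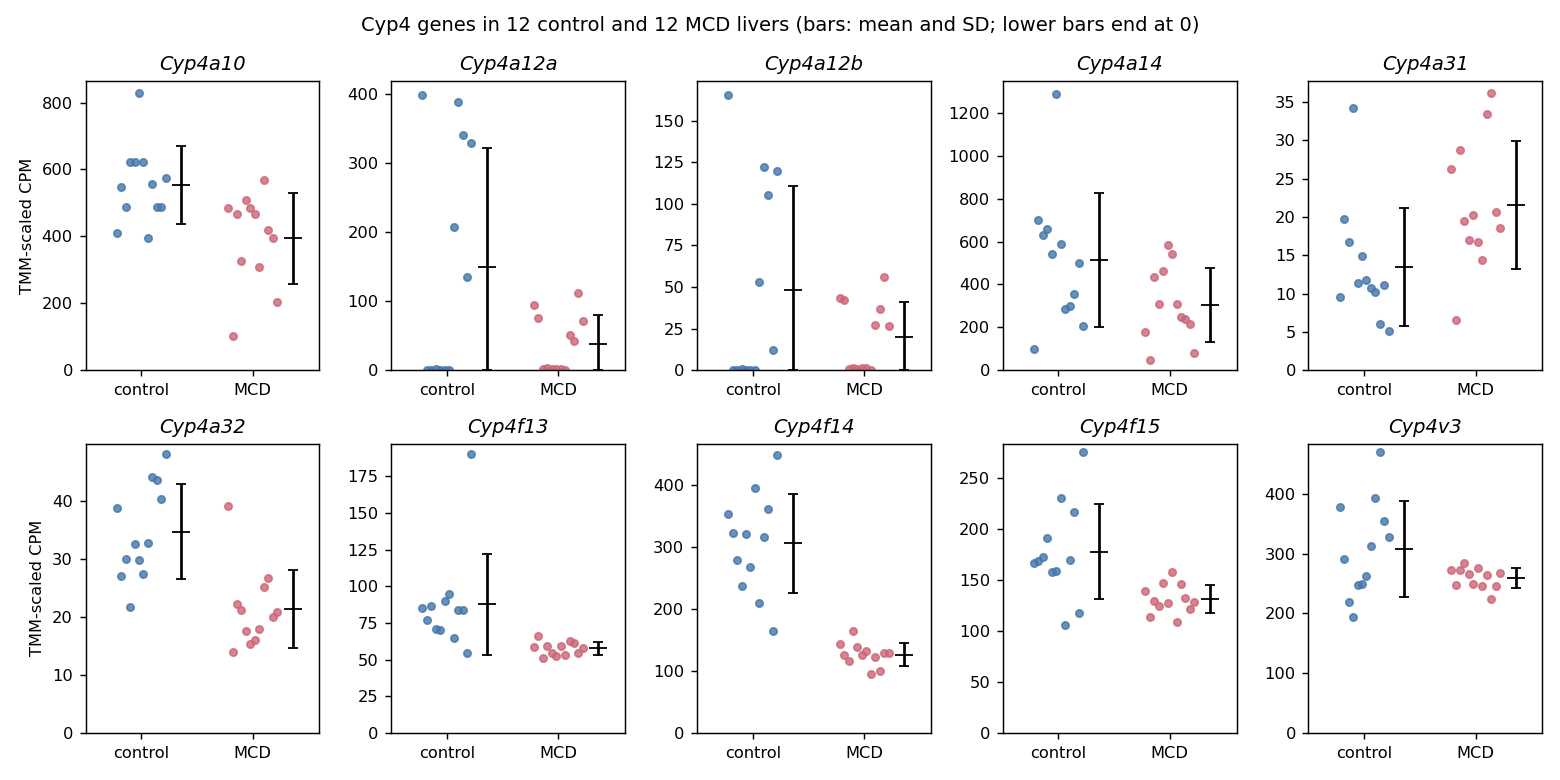
TMM-scaled CPM (vertical axis, linear from 0) of each of the 10 Cyp4 genes in the 12 control libraries (blue) and the 12 MCD libraries (red), with 1 point per library and bars for the mean and SD. Cyp4f14 is the gene whose MCD points, 94.3 to 164 CPM, all lie below its control points, 164 to 448 CPM, and the points of Cyp4a12a and Cyp4a12b fall into a group near 0 and a group far above it in both diets.

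Cyp4f14, a leukotriene B4 omega-hydroxylase, had the clearest change of the family. It ran from 164 through a median of 318 to 448 CPM in the control libraries and from 94.3 through 127 to 164 CPM in the MCD libraries. Every MCD library was below every control library, though the closest 2 were nearly level at 163.8 and 163.96 CPM. Without TMM the ranges overlapped, at 159 to 340 CPM under control diet and 111 to 183 CPM under MCD diet. Such a separation downwards was seen for 4.88% of all genes tested. The mean fell from 306 ± 79.9 to 126 ± 18.5 CPM, or -1.28 on the log2 scale (SE 0.13, edgeR FDR 3.3e-09). The call held under all 11 alternatives, where the log2 fold change lay between -1.28 and -0.89, and in all 24 fits that left out 1 library.

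Cyp4f13, a widely expressed Cyp4f enzyme, was called lower, and that call rested on 1 library. It ran from 54.7 through 83.8 to 190 CPM under control diet and from 51.3 through 58.2 to 66.2 CPM under MCD diet. The value of 190 CPM belongs to control replicate 12, and the next control library stood at 94.6 CPM. The diets differed by a log2 value of -0.60 (SE 0.13, edgeR FDR 0.00034). Without control replicate 12 it was -0.41, inside the fold limit, with an edgeR FDR of 3.9e-05, and with total counts alone it was -0.20 (FDR 0.0753). The spread of the control group, 39.1% of the mean, was 15.3% without that library, against 7.96% in the MCD group.

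Cyp4f15, the remaining member of the Cyp4f set, passed the FDR limit but not the fold limit. It ran from 106 through 169 to 275 CPM under control diet and from 109 through 129 to 157 CPM under MCD diet, and the groups overlapped at the bottom of the control range. The diet difference came to -0.44 on the log2 scale (SE 0.12, edgeR FDR 0.00195). With total counts alone it was -0.05.

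Cyp4a10 and Cyp4a14 are the Cyp4a genes best known for their response to fasting and to drugs that activate PPARA, and averaged over all libraries of a diet they had the highest levels of the family per length of transcript. Cyp4a10 ran from 396 through 552 to 828 CPM under control diet and from 103 through 442 to 569 CPM under MCD diet. Its log2 fold change of -0.49 (SE 0.19, edgeR FDR 0.0248) did not pass, and it was -0.14 (FDR 0.528) with total counts alone. Cyp4a14 ran from 98.5 through 521 to 1287 CPM under control diet and from 45.4 through 279 to 585 CPM under MCD diet, and its log2 fold change of -0.75 (SE 0.36, edgeR FDR 0.0670) did not pass either (-0.44, FDR 0.313, with total counts alone). Both genes varied widely within each diet, by 21% and 60.6% of the mean under control diet and by 34.5% and 56.6% under MCD diet. MCD replicate 2 was the lowest library of all 24 for both.

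Cyp4a32 and Cyp4a31, the near copies of Cyp4a10, had log2 fold changes of opposite sign, and only that of Cyp4a32 was called. It ran from 21.7 through 32.6 to 48.1 CPM under control diet and from 14.0 through 20.4 to 39.2 CPM under MCD diet, where the second highest library was at 26.7 CPM. The diets differed by a log2 value of -0.70 (SE 0.15, edgeR FDR 0.0002), a call that was lost with total counts alone (-0.33, FDR 0.0272). Cyp4a31 ran from 5.07 through 11.3 to 34.3 CPM under control diet and from 6.55 through 19.9 to 36.2 CPM under MCD diet. Its log2 fold change of 0.67 (SE 0.26, edgeR FDR 0.0239) did not pass, but it passed as higher without control replicate 4 (0.89, FDR 0.0014) and without MCD replicate 2 (0.80, FDR 0.00575), which are the highest control library and the lowest MCD library of this gene. When the counts of Cyp4a10, Cyp4a31 and Cyp4a32 were added into 1 feature, the sum differed by -0.46 on the log2 scale (SE 0.18, edgeR FDR 0.0252), which did not pass. Cyp4a10 gives most of that sum, so it says little about either of the rarer copies.

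Cyp4a12a, the main maker of the eicosanoid 20-HETE in mice and a gene of the male liver, fell into 2 separate sets of libraries in each diet. Its counts ran from 0 through 1523 to 6571 under control diet and from 6 through 567 to 2131 under MCD diet. In each diet 6 libraries held at most 61 counts and 6 held at least 1073, with nothing between them. The means of 150 ± 172 and 37.9 ± 41.9 CPM therefore describe no single liver, and the log2 fold change of -1.98 had a SE of 1.14 (edgeR FDR 0.131). Cyp4a12b showed the same gap, from 0 through 142 to 2428 counts and from 9 through 306 to 1163 counts, and the fit gave -1.28 on the log2 scale (SE 1.02, edgeR FDR 0.279).

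Cyp4v3 was the steadiest gene under MCD diet. It ran from 194 through 302 to 470 CPM under control diet and from 223 through 265 to 284 CPM under MCD diet. The MCD libraries lay inside the control range, with a spread of 6.61% of the mean against 26.1%. The log2 fold change of -0.25 (SE 0.11, edgeR FDR 0.0530) did not pass, and it was 0.13 with total counts alone.

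**Figure D2:**
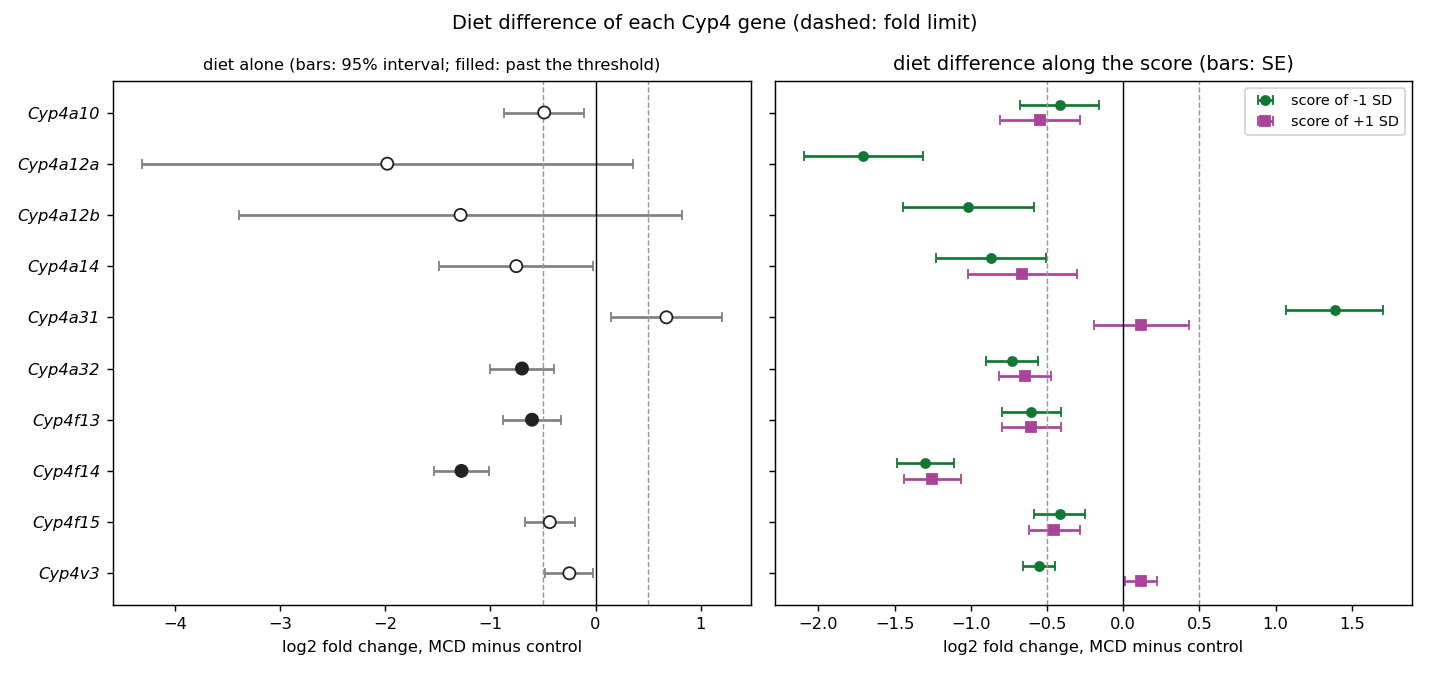
Log2 fold change, MCD minus control, of each Cyp4 gene (horizontal axis, 0 as a solid line and the fold limit of 0.5 as dashed lines). The left panel gives the diet comparison over 24 libraries with 95% intervals and filled points for the 3 genes past the threshold, and the right panel gives the diet difference read at a score of -1 SD (circles) and +1 SD (squares) with SEs, where Cyp4a31 and Cyp4v3 have the widest gaps between the 2 readings. No square is drawn for Cyp4a12a and Cyp4a12b, whose control counts at that end lie near 0.

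Per kilobase of transcript, the scale on which genes can be set against each other, the order under control diet was Cyp4a10 at 262 ± 55.1, Cyp4a14 at 206 ± 125, Cyp4f14 at 138 ± 36, Cyp4f15 at 81.9 ± 21.5 and Cyp4v3 at 80.9 ± 21.1 CPM per kb. Cyp4a12a followed at 61.8 ± 70.8, Cyp4f13 at 49.98 ± 19.6, Cyp4a32 at 22.7 ± 5.34, Cyp4a12b at 20.1 ± 26.0 and Cyp4a31 at 5.36 ± 3.08 CPM per kb. Of neighbours in this order, Cyp4f13 and Cyp4a32 alone were separated by more than their SDs. The order pools 2 ranges of the score described next, between which Cyp4a12a, Cyp4a12b and Cyp4a14 differed. In the 6 control libraries with a score below 0, Cyp4a10 exceeded Cyp4a14 in 6 and Cyp4f14 exceeded Cyp4a14 in 4, and Cyp4a12a, at 55.9 to 164.5 CPM per kb, exceeded Cyp4a14 in 3. In the 6 with a score above 0, Cyp4a10 exceeded Cyp4a14 in 3 and Cyp4f14 exceeded it in 0, and Cyp4a12a lay between 0 and 0.49 CPM per kb. Cyp4f14 exceeded Cyp4f15 in 12 of 12 control libraries, while Cyp4f15 exceeded Cyp4v3 in 7 of 12. Under MCD diet Cyp4v3 at 68.1 ± 4.50 and Cyp4f15 at 60.6 ± 6.54 stood above Cyp4f14 at 56.9 ± 8.34 CPM per kb, and Cyp4f15 was above Cyp4f14 in 8 of 12 libraries. Cyp4a10 stayed first at 187 ± 64.5 and Cyp4a14 second at 122 ± 69.1 CPM per kb. Lengths are those of the longest transcript in the reference.

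The gap in Cyp4a12a was followed with a sex-linked expression score. It takes log2 CPM of Xist, subtracts the average over Ddx3y, Eif2s3y, Kdm5d and Uty on the same scale, and is centred and divided by its SD. Xist is the RNA that silences an X chromosome, and the other genes sit on the Y chromosome. The score fell into 2 separate ranges, from -1.12 to -0.81 in 12 libraries and from 0.91 to 1.10 in 12, with 6 libraries of each diet in each range. It entered the models as a number only, and libraries were not sorted into sexes by it. In a model with diet and score, 3 of the 10 genes had a slope on the score at an FDR of 0.01 or less, against 3.48% of all genes tested (1.69% falling and 1.79% rising).

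Cyp4a12a fell by 3.78 on the log2 scale per SD of the score (SE 0.27, edgeR FDR 1.1e-10) and Cyp4a12b fell by 3.52 (SE 0.25, edgeR FDR 1.0e-10). Among libraries with a score below 0, Cyp4a12a had 3025 to 6571 counts under control diet and 1073 to 2131 under MCD diet. Among those with a score above 0, it had 0 to 21 counts under control diet and 6 to 61 under MCD diet. Cyp4a12b had 273 to 2428 and 578 to 1163 counts below 0, and 0 to 11 and 9 to 33 counts above 0. Added together as 1 feature, the copies fell by 3.78 per SD (edgeR FDR 4.0e-10), so this slope does not rest on how reads were split between them.

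Cyp4a14 ran the other way and rose with the score by 0.68 per SD (SE 0.13, edgeR FDR 0.000807). Under control diet it had 541 to 1287 CPM in libraries with a score above 0 and 98.5 to 502 CPM in those below 0. Under MCD diet the ranges were 308 to 585 and 45.4 to 250 CPM, so the 2 score ranges did not overlap in either diet. With the score in the model, its diet difference of -0.76 passed the threshold (edgeR FDR 0.00873), and 4 Cyp4 genes were then called lower. Cyp4a32 had a slope of -0.24 (SE 0.06, edgeR FDR 0.0101), just outside the limit. The slopes of Cyp4f13, Cyp4f14, Cyp4f15, Cyp4a10 and Cyp4a31 lay between -0.07 and 0.19 and that of Cyp4v3 was -0.15 (SE 0.05, edgeR FDR 0.0574), and none of them passed.

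**Figure D3:**
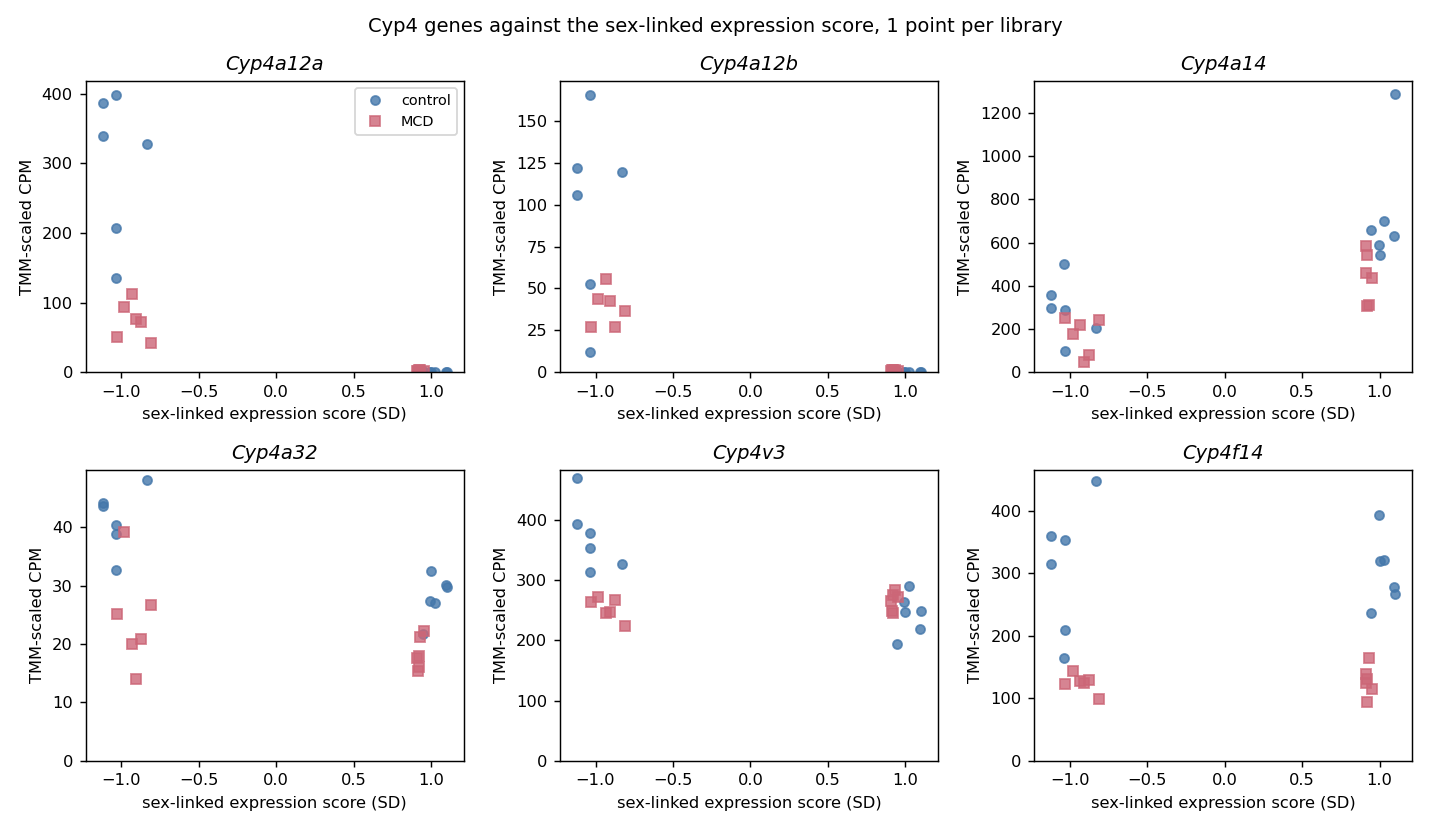
TMM-scaled CPM (vertical axis, linear from 0) of 6 Cyp4 genes against the sex-linked expression score in SD (horizontal axis), with 1 point per library, control as blue circles and MCD as red squares. Cyp4a12a and Cyp4a12b are near 0 wherever the score is above 0, Cyp4a14 is higher there in both diets, and Cyp4v3 separates control libraries by score (194 to 290 against 313 to 470 CPM) but not MCD libraries. Without TMM the control ranges of Cyp4v3 overlap, while its MCD ranges do not (297.7 to 317.4 CPM above 0 and 248.3 to 296.5 CPM below 0).

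Whether the diet difference itself changed along the score was tested as an interaction. It passed for 1 of the 10 genes, Cyp4a12a, against 0.411% of all genes tested, with a coefficient of 1.93 (SE 0.39, edgeR FDR 0.00897). The size of this coefficient rests in part on control libraries at or near 0 counts and is not read as a fold. The call was lost when Cyp4a12a and Cyp4a12b were added into 1 feature (FDR 0.0113). It was also lost in 19 of the 24 fits that left out 1 library (FDR up to 0.0253), with limma-voom (FDR 0.0497) and with a score from the Y-linked genes alone (FDR 0.0331). Read at a score of -1 SD, Cyp4a12a was lower under MCD diet by -1.71 on the log2 scale (SE 0.39, edgeR FDR 0.000716), and every control library below 0 held more counts than every MCD library there. Its near copy Cyp4a12b read -1.02 (SE 0.43, edgeR FDR 0.0479), which did not pass, and its diets overlapped there. Above 0, 4 of 6 control libraries had 0 or 1 count of Cyp4a12a and the others 5 and 21. Most lie close to the floor of 3 counts per library, so no fold is given for that side.

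Cyp4v3 had an interaction of 0.33 (SE 0.07, edgeR FDR 0.0235), which did not pass except without control replicate 12 (FDR 0.00757). At a score of -1 SD it was lower under MCD diet (-0.55, SE 0.10, edgeR FDR 9.2e-05), from 313 to 470 CPM down to 223 to 273 CPM with no overlap. Without TMM these libraries overlapped, at 209.9 to 384 and 248 to 296.5 CPM, and the 209.9 CPM belongs to control replicate 12. At +1 SD the difference was 0.12 (SE 0.10, edgeR FDR 0.358), with 194 to 290 CPM under control diet and 246 to 284 CPM under MCD diet, while without TMM the MCD libraries at that end (298 to 317 CPM) lay above the control libraries (186 to 267 CPM). Cyp4a31 was higher under MCD diet at -1 SD (1.39, SE 0.32, edgeR FDR 0.000716) and had a difference of 0.12 (SE 0.31, edgeR FDR 0.775) at +1 SD, yet its interaction of -0.63 (SE 0.23, edgeR FDR 0.200) did not pass, so these readings are not shown to differ. Cyp4f14 gave -1.30 and -1.25 and Cyp4a32 -0.73 and -0.64, each called lower at both ends. At a score of -1 SD 19.0% of all genes were called lower and 18.2% higher, and at +1 SD 14.7% and 16.5%. These readings at either end of the score were chosen after the values had been seen.

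Within a diet the genes followed a few shared patterns, given as Pearson r of log2 CPM over 24 libraries after each diet mean was taken off. These points share library depth, scaling and the score, so r is also given with the score and its product with diet removed. Cyp4f13, Cyp4f14 and Cyp4f15 had r from 0.68 to 0.75 (0.70 to 0.76 with the score removed). Over the 12 control libraries alone r was 0.77 to 0.84, and 0.75 to 0.82 without control replicate 12, while over the 12 MCD libraries it was 0.13 to 0.35. Cyp4a10 and Cyp4a14 had r = 0.76 (0.79), and Cyp4a12a and Cyp4a12b r = 0.98 (0.72). Cyp4a31 and Cyp4a32 had r = -0.90 over the 12 control libraries but 0.72 over the 12 MCD libraries, and r = -0.07 over all 24 (0.26 with the score removed). Under control diet the score ranges of these genes lay in opposite order, with Cyp4a31 at 11.4 to 34.3 CPM above 0 and 5.07 to 11.2 CPM below 0, and Cyp4a32 at 21.7 to 32.5 and 32.7 to 48.1 CPM.

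Within the family the highest r was that of Cyp4a12a with Cyp4a12b before the score was removed. With the score removed, Cyp4a10 with Cyp4a14 had the highest, at 0.79 against 0.72. Leaving the family out, 3 genes are named for each member by their r before the score was removed. For Cyp4f13 they were Proc (r = 0.97), which encodes the anticoagulant protein C, Hpn (0.97) and Ptms (0.95). For Cyp4f14 they were Serpina1d (0.90), Apoh (0.86) and Clcn2 (0.83), and for Cyp4f15 the amino acid catabolic genes Ivd (0.94), Hpd (0.92) and Prodh2 (0.91). For Cyp4a10 they were Rab30 (0.84), the acyl-CoA thioesterase gene Acot1 (0.81) and Gldc (0.74), and for Cyp4a14 Sulf2 (0.85), the thioesterase gene Acot3 (0.81) and Nt5e (0.81). With the score removed, Acot3 had r = 0.46 and Nt5e r = 0.50 with Cyp4a14. Outside the family, Cyp4a12a was nearest to C6 (0.98, and 0.81 with the score removed), Mup20 (0.96, 0.84) and Alas2 (0.96, 0.59), and Cyp4a12b to C6 (0.97, 0.68), Scara5 (0.96, 0.70) and Cyp2d9 (0.96, 0.38). Cyp4a31 was nearest to Lepr (0.82), Nipal1 (0.82) and Tbc1d8 (0.81), Cyp4a32 to Ufsp2 (0.79), Cyp2j9 (0.76) and Immt (0.75, and 0.55 with the score removed), and Cyp4v3 to the alcohol dehydrogenase gene Adh4 (0.92), Ugt3a1 (0.91) and Slc30a5 (0.91). The pairs given here with 1 value had r from 0.65 to 0.98 with the score removed.

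Of 10 further Cyp4 genes in the annotation, 4 passed the low-count filter, and all had low counts. Cyp4f18, the leukotriene B4 hydroxylase of neutrophils, rose from 1.65 ± 0.90 to 9.94 ± 1.72 CPM, or 2.57 on the log2 scale (SE 0.22, edgeR FDR 1.5e-10). Its exons overlap Zfp961 on the opposite strand, which leaves its counts uncertain. Cyp4f16 rose from 4.75 ± 1.90 to 12.9 ± 1.52 CPM, or 1.44 on the log2 scale (SE 0.16, edgeR FDR 3.0e-08). For both genes every MCD library was above every control library, which was seen for 9.50% of all genes tested. Cyp4b1, better known from lung, fell from 21.5 ± 4.82 to 9.68 ± 3.16 CPM (log2 fold change -1.15, SE 0.16, edgeR FDR 6.9e-07), and its ranges did not overlap with TMM but did without it (9.43 to 26.8 and 6.59 to 15.5 CPM). Cyp4f17 was at -0.38 on the log2 scale (SE 0.13, edgeR FDR 0.00947), inside the fold limit. Cyp4a29, Cyp4a30b and Cyp4f40 had 0 counts in every library, which allows up to 3 counts per library.

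Markers of other cell types differed between the diets too. The summed level of the 7 neutrophil markers ran from 2.42 to 7.41 CPM under control diet and from 12.6 to 36.1 CPM under MCD diet, with 1 of them at 0 in every control library. The 9 monocyte-derived macrophage markers summed to 48.1 to 212 and 1106 to 2180 CPM, and the 6 cholangiocyte markers to 30.1 to 146 and 453 to 906 CPM. Spp1 is in both the macrophage and the cholangiocyte list. At means of 58.7 and 593 CPM it gives most of the cholangiocyte sum, which is therefore no measure of cholangiocytes alone. Several genes of the neutrophil, macrophage and cholangiocyte lists were near 0 under control diet. They could pass the filter through the MCD libraries alone, so the calls of these lists are not counted. Calls of the lymphocyte, Kupffer cell and endothelial markers are left out as well. Mesenchymal markers were higher for 8 and lower for 1 of 10, next to 19.2% and 19.1% of all genes tested. Lymphocyte markers summed to 4.30 to 13.2 and 11.3 to 24.6 CPM. The 8 Kupffer cell markers summed to 287 to 506 and 155 to 480 CPM, and the 7 endothelial markers to 198 to 293 and 118 to 183 CPM. Median log2 fold changes were -0.60 for the Kupffer cell markers and -0.62 for the endothelial markers. The hepatocyte markers, which mark the cells that hold most Cyp4 enzyme, were lower for 5 of 10, against 19.1% of all genes tested. Their median log2 fold change was -0.56, next to the -0.65 of the Cyp4 genes. Their sum ran from 79410 to 175015 CPM under control diet and from 58839 to 85751 CPM under MCD diet. On total counts alone 0 of the 10 were lower and 1 was higher, next to 848 and 4539 of all 14109 genes tested. The part of these cell types in the Cyp4 values was not tested.

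Genes of the steps that follow omega-hydroxylation were lower for 15 of 22 tested (19.1% of all genes tested), with a median log2 fold change of -0.76. They encode the alcohol and aldehyde dehydrogenases that make the dicarboxylic acid, the ligases that activate it and the peroxisomal transporters and enzymes that shorten it. The largest falls were in Acsl5, an acyl-CoA ligase (-1.41, SE 0.11, edgeR FDR 2.0e-11), Abcd2, a peroxisomal transporter (-1.18, SE 0.29, edgeR FDR 0.000814), and Acaa1b, a peroxisomal thiolase (-1.16, SE 0.15, edgeR FDR 1.5e-07). Exons of Acsl5 and Acaa1b overlap a gene on the opposite strand. With total counts alone 7 of the 22 were lower, next to 848 of all 14109 genes tested.

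PPARA and its targets were lower for 18 and higher for 2 of 37 genes, against 19.1% and 19.2% of all genes tested. The list had a median log2 fold change of -0.50. Ppara itself fell from 118 ± 38.9 to 34.7 ± 7.46 CPM (-1.76, SE 0.20, edgeR FDR 2.5e-08), and Rxra, its partner receptor, from 793 ± 166 to 504 ± 39.2 CPM (-0.65, SE 0.10, edgeR FDR 1.7e-06). Of the targets, the largest falls besides Ppara were in Acot3 (-1.90, SE 0.45, edgeR FDR 0.00066), whose exons overlap other genes, and Fabp1, the fatty acid binding protein of hepatocytes (-1.73, SE 0.17, edgeR FDR 2.8e-09). Pdk4, which spares glucose by holding back pyruvate dehydrogenase, rose by 1.31 (SE 0.27, edgeR FDR 0.000118) and Fgf21, a fasting hormone, by 1.16 (SE 0.28, edgeR FDR 0.000789). With total counts alone 8 of the 37 were lower, next to 848 of all 14109 genes tested. Cyp4a10 and Cyp4a14, members of the same regulon, had log2 fold changes of -0.49 and -0.75, which did not pass. Cyp4a31, a near copy of Cyp4a10, was at 0.67 and did not pass either. Whether the level of Ppara bears on any Cyp4 gene was not tested.

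**Figure D4:**
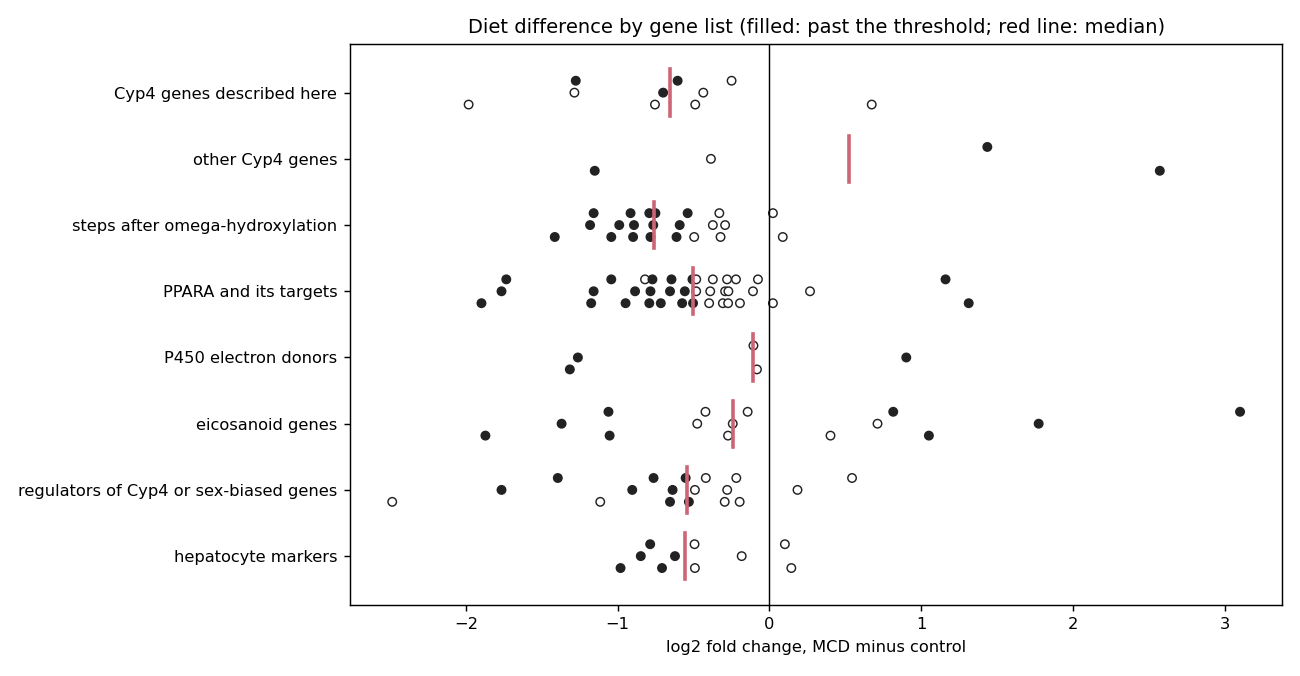
Log2 fold change, MCD minus control (horizontal axis), of every tested gene of 8 lists, with filled points for genes past the threshold and a red line at each list's median. The median lies at -0.65 for the 10 Cyp4 genes, -0.76 for the steps after omega-hydroxylation, -0.50 for PPARA and its targets and -0.56 for hepatocyte markers, and the other Cyp4 genes are spread to both sides.

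The P450 electron donors did not move as a block. Por, the reductase that feeds electrons to every P450 of this compartment, was at -0.08 on the log2 scale (SE 0.15, edgeR FDR 0.648). Cyb5r3 fell by 1.31 (SE 0.13, edgeR FDR 3.3e-09) and Cyb5b by 1.26 (SE 0.11, edgeR FDR 5.2e-10), while Cyb5r1 rose by 0.90 (SE 0.10, edgeR FDR 1.2e-08). Cyb5a, the remaining gene of this list, did not pass. Which of these genes serve the Cyp4 enzymes was not tested. Exons of Cyb5r3 overlap a gene on the opposite strand.

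Eicosanoid genes, whose pathway supplies substrates of Cyp4f and Cyp4a12a enzymes, were higher for 4 and lower for 4 of 15 tested. Among all genes tested 19.2% were higher and 19.1% lower. Alox5ap, which hands arachidonic acid to 5-lipoxygenase, rose by 3.10 (SE 0.21, edgeR FDR 3.6e-12), Ptgr1, a prostaglandin reductase that also oxidizes leukotriene B4, by 1.77 (SE 0.17, edgeR FDR 2.0e-09) and Pla2g4a, the phospholipase that frees arachidonic acid, by 1.05 (SE 0.19, edgeR FDR 2.7e-05). Cyp2u1, a fatty acid P450 of another family, fell by 1.87 (SE 0.44, edgeR FDR 0.000576), Cyp2j5, an arachidonic acid epoxygenase, by 1.37 (SE 0.09, edgeR FDR 5.6e-12) and Ptgr2, another prostaglandin reductase, by 1.06 (SE 0.10, edgeR FDR 1.3e-09). The diet difference of Cyp2u1 changed along the score (interaction 1.15, SE 0.21, edgeR FDR 0.00389), and it read -2.41 (edgeR FDR 2.1e-07) at -1 SD and -0.12 (edgeR FDR 0.765) at +1 SD. Exons of Alox5ap, Cyp2u1 and Ptgr2 overlap a gene on the opposite strand.

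Among 18 regulators of Cyp4 or sex-biased genes, 8 were lower and 0 higher, next to 19.1% and 19.2% of all genes tested. With total counts alone 3 were lower and 2 higher, with upper-quartile factors 5 were lower, and with a log2 limit of 1, 2 were lower. In the same order 848, 1710 and 686 of all genes were lower, and 4539 were higher with total counts alone. Besides Ppara the 8 regulators called lower included Ghr, the growth hormone receptor (-1.39, SE 0.13, edgeR FDR 5.5e-10), Nr1i3, the nuclear receptor CAR (-0.90, SE 0.17, edgeR FDR 4.6e-05), and Stat5b, the factor through which growth hormone sets sex-biased genes (-0.55, SE 0.09, edgeR FDR 7.6e-06). Exons of Nr1i3 and Bcl6 overlap a gene on the opposite strand. Bcl6 and Cux2, repressors that differ between the sexes in liver, had log2 fold changes of -1.11 (SE 0.39, edgeR FDR 0.0160) and -2.48 (SE 0.96, edgeR FDR 0.0270) and did not pass. That of Cux2 changed along the score (interaction -1.13, edgeR FDR 0.00818), with 0.04 (edgeR FDR 0.932) at -1 SD and -2.22 (edgeR FDR 1.1e-07) at +1 SD. Of genes known as male-biased, the group that holds Cyp4a12a, 13 of 14 fell with the score, and of genes known as female-biased 15 of 15 rose with it. Under MCD diet 4 of the 14 and 5 of the 15 were lower, next to 19.1% of all genes tested, and with total counts alone 2 and 3, next to 848 of the 14109 genes tested. Leaving out 1 library gave 2 to 6 of the 14 and 4 to 5 of the 15. The 5 include Hao2, which could pass the filter through the control libraries alone. Of the first, Elovl3 (-2.58, SE 0.76, edgeR FDR 0.00465), Cyp2u1 and Nudt7 (-1.19, SE 0.37, edgeR FDR 0.00702) had the largest falls (exons of Elovl3 overlap Pitx3 on the opposite strand), and of the second Hao2, at 9.51 ± 10.3 CPM under control diet and 0.48 ± 0.44 CPM under MCD diet, too near the floor for its fold to be given, Cyp17a1 (-2.60, SE 0.51, edgeR FDR 8.8e-05) and Acot3.

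The RefSeq promoter windows at hand (GRCm38.p6, 250 bases before to 50 after a start) hold 8 entries for 5 of the genes, Cyp4a32, Cyp4f13, Cyp4f14, Cyp4f15 and Cyp4v3. The DR1 motif of PPARA (AGGNCA repeated after 1 free base, either strand) is in none of the 8 and in 0.381% of all 32851 windows. The STAT5 motif TTCNNNGAA is in 1 of them, that of Cyp4f13, 22 bases before the start, and in 8.30% of all windows. Cyp4a10, Cyp4a12a, Cyp4a12b, Cyp4a14 and Cyp4a31 have no entry there.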

How the data were processed

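Poly(A) RNA from whole livers was sequenced, and the authors deposited raw read counts per Ensembl gene, 1 column per library. The submitters' processing notes list bcl2fastq, STAR 2.7.3a and build mm10. The study's methods describe a stranded mRNA kit and, against a human reference, the exon quantification pipeline with STAR and PISCES. The counting program, annotation and strand setting of the mouse counts are not given in the sources used here. Of 56205 rows, 51745 received a symbol from GENCODE M21 (GRCm38). The rest held 0.0808% of counts.

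Genes were filtered with filterByExpr by diet (14109 kept), scaled with TMM and tested with edgeR 4.0.16 (glmQLFit, glmQLFTest, R 4.3.3) on diet over 24 libraries, with Benjamini-Hochberg adjustment over all genes tested. SEs are the absolute log2 fold change over the root of F. Log2 CPM used a prior count of 2. The score models added the score, or the score and its product with diet. The biological coefficient of variation was 26.8%, and the totals given above set the precision. The 132 within-diet pairs of libraries differed beyond sampling noise (lowest chi-square per degree of freedom 11.4).

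Tried as alternatives were scaling by relative log expression, by upper quartiles or by totals alone, omitting the filter or asking for 10 counts in each library, DESeq2 1.42.0 and limma-voom (limma 3.58.1), a replicate block, the score as covariate, an FDR of 0.05 with no fold limit, a log2 limit of 1, pooled copies and leaving out each library. The fits were tested on simulated data. Reading the diet difference at either end of the score, leaving control replicate 12 out of the spread and of correlations, removing the score before correlation, ranges without TMM and levels per kb within each score range were chosen after seeing the data.

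The 10 genes and all lists were chosen with earlier results of these data known. Named are every member, every other Cyp4 gene past the filter, the 3 largest rises and falls of each pathway list among genes past the threshold, 5 regulators, and the 3 genes most like each member. Marker lists are given as counts and sums. Shared windows and coding identity came from the GENCODE M21 transcripts, aligned with Biopython 1.88. Sequence windows come from the same transcripts.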

Additional observations from a re-analysis of the deposited data

How the results depend on the processing

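The number of Cyp4 genes called lower (3) was 2 with upper-quartile factors (without Cyp4f13), 1 with total counts alone and with a log2 limit of 1 (Cyp4f14), 4 with the score as covariate and 5 at an FDR of 0.05 with no fold limit. It was 2 to 3 without 1 library. The number called higher (0) was 1 with total counts alone, with DESeq2 and at an FDR of 0.05 with no fold limit, in each case Cyp4a31, and 0 to 1 without 1 library. The number with an interaction (1) was 0 with limma-voom and with the Y-linked genes alone, and 0 to 2 without 1 library. The number with a slope (3) was 3 under its 3 alternatives and 3 to 4 without 1 library. Reversed signs were those of Cyp4v3 with total counts alone (0.13), of Cyp4a12a (0.93) and Cyp4a12b (1.48) with limma-voom, and of Cyp4a31 with pooled copies (-0.46), where the pooled feature is mostly Cyp4a10. None of these 4 values was called, and the cause of the other 3 was not tested. All genes called higher (2712) were 4539 with total counts alone and 1801 with at least 10 counts in every sample, a filter that also removes Cyp4a12a and Cyp4a12b. All genes called lower (2688) were 1710 with upper-quartile factors, 848 with total counts alone, 5221 at an FDR of 0.05 with no fold limit and 686 with a log2 limit of 1. Genes of the other lists called higher (39) were 22 with at least 10 counts in every sample, and those called lower (64) were 28 with total counts alone and 27 with a log2 limit of 1.

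Samples share only a replicate number. Deviations from the diet means correlated above 0.1 in 8 of 12 same-numbered pairs (-0.28 to 0.35). With the replicate block 3 Cyp4 genes were lower and 0 higher, and no call of a Cyp4 gene changed. The block gave 2781 genes higher and 2430 lower. Depth limits Cyp4a12a and Cyp4a12b in the control libraries with a score above 0, which held 0 to 21 and 0 to 11 counts, beside a floor of 3. The MCD libraries of that range held 6 to 61 and 9 to 33 counts.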
